A study of Mus musculus with 2 samples.

Results

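The 6 ligand genes Cxcl1, Cxcl2, Cxcl3, Cxcl5, Ppbp and Pf4 and the receptor gene Cxcr2 were followed in the membrane that lines the murine air pouch. They were represented by 9 of the 45101 probe sets of the array and 7 of its 18193 named genes, taken as every probe set that the platform annotation assigns to 1 of these genes alone. Cxcl1 had 3 such probe sets and the other 6 genes had 1 each. No probe set was annotated to a member together with another gene, so none was left out for that reason. A probe set combines several short probes of 1 transcript into a single reading.

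Pouches had been raised under the dorsal skin of female Balb/C mice, 6 to 8 weeks of age, with 2 ml of air. MSU pouches then received 2 mg of monosodium urate (MSU) crystals in 1 ml phosphate-buffered saline (PBS) on day 7, and control pouches received 1 ml PBS alone. These amounts and days come from the series' own design text, and the methods of the study give another schedule of inflation and injection. Membranes were taken 9 h later from both groups. RNA of 3 mice per group was pooled and each pool hybridized to 1 array, so the values describe 2 pools, no test between them was possible, and no p-value is given. The lumen had been washed out with PBS before dissection, and small remnants of fat and muscle may have stayed on the membranes, as the study itself notes.

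CXC chemokines are small secreted proteins named for the spacing of the first cysteines. Those that carry the residues glutamate, leucine and arginine before these cysteines (the ELR motif) bind the receptor CXCR2 on neutrophils and draw these cells out of the blood into inflamed tissue. Cxcl1 (KC), Cxcl2 (macrophage inflammatory protein 2), Cxcl3, Cxcl5 (LIX) and the processed product of Ppbp (platelet basic protein, CXCL7) belong to this group. Pf4 (platelet factor 4, CXCL4) lies in the same gene cluster but lacks the ELR motif. Neutrophils are the dominant cell of the acute gouty joint, and their entry into a crystal-filled pouch is used as a model of it.

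In the MSU pool all 7 genes had a higher signal than they had with PBS alone. A fold is given where the signal reached the detection floor on both arrays (74.1 on the MSU array and 64.6 on the control array), and a lower bound against the floor where it did so in the MSU pool alone. With 5 folds and 2 bounds, all 7 genes passed 2-fold upwards and 0 passed it downwards. Among all 11155 genes with a fold or a bound, 3.7% were higher by 2-fold or more and 4.29% were lower by as much. All 9 probe sets of the members were higher by 2-fold or more, as were 3.97% of the 18708 named probe sets with a fold or a bound, of which 3.59% were lower by as much. At a size of 3-fold, 6 of the 7 members passed, against 1.47% of all genes, the exception being Pf4. The median log2 ratio was 3.16 for the 5 members with a fold and -0.05 for all 10045 genes with a fold. All 18 spike-in controls of hybridization were brighter on the MSU array (median 1.37-fold). Scaling on them lowers each log2 ratio by 0.46, so every log2 ratio or median between 0 and 0.46 given here turns below 0 under it. With that scaling 200 of 11282 genes with a fold or a bound were higher by 2-fold or more, and 1787 were lower by as much.

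**Figure D1:**
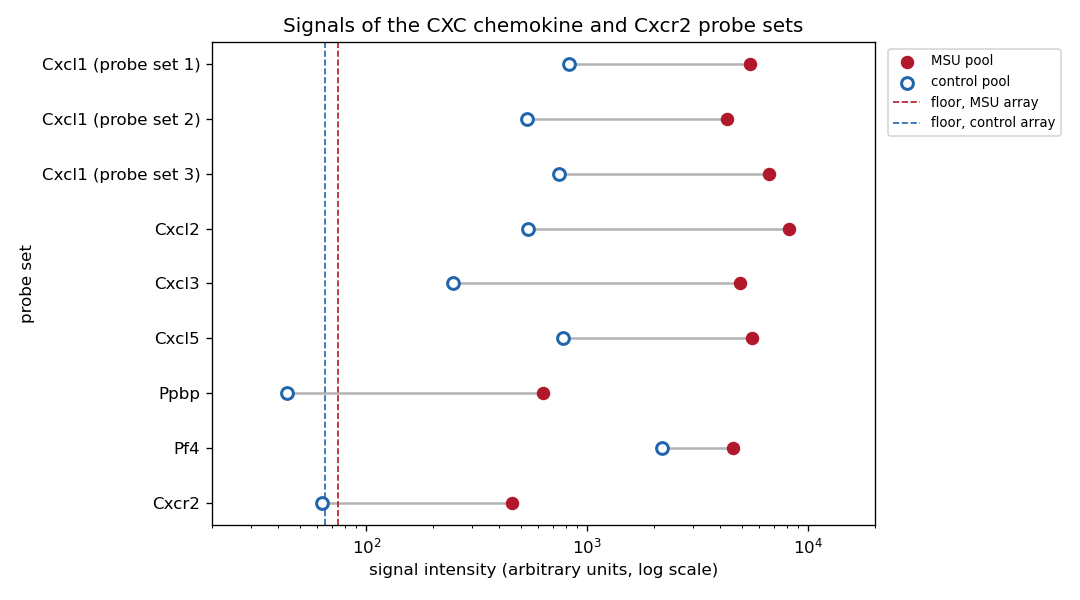
Signal intensity (x axis, arbitrary units, log scale) of the 9 probe sets (y axis) in the MSU pool (filled red) and the control pool (open blue), 1 array each, with the floors of the MSU array (74.1) and of the control array (64.6) as dashed lines. The red point lies right of the blue one in every row, and the control points of Ppbp and Cxcr2 lie left of the control floor.

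The 3 ligands of the GRO type, Cxcl1, Cxcl2 and Cxcl3, are made by macrophages, fibroblasts and endothelial cells after stimulation with interleukin-1, tumour necrosis factor or microbial products. Cxcl3 had a signal of 4907 in the MSU pool and 245 in the control pool, which is 20-fold higher (log2 ratio 4.32). Its ratio ranked 2 among the 10045 genes with a fold. Genes with a bound alone, such as Csf3 (at least 22.9-fold higher), were not ranked. The study's own list of its most highly upregulated mRNAs holds the sequence of this probe set, after several with larger ratios. For Cxcl2 the signals were 8208 in the MSU pool and 538 in the control pool, a 15.3-fold difference (log2 ratio 3.93) at rank 4. Both genes were thus above the floor in pouches given PBS alone, at 3.79 times the control floor for Cxcl3 and 8.32 times for Cxcl2.

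Cxcl1 was the only member read by more than 1 probe set, and these differed in ratio. On the probe set that stands for it here (suffix _s) the signal was 6668 in the MSU pool and 748 in the control pool, or 8.91-fold higher (log2 ratio 3.16). On the probe set with the suffix _x it was 4271 in the MSU pool and 533 in the control pool, or 8.02-fold higher. The remaining probe set, which the annotation ties to the RefSeq transcript of the gene, had 5449 in the MSU pool and 825 in the control pool, or 6.60-fold higher. The suffixes _s and _x mark probe sets with probes that may also match other transcripts, so the lowest of these ratios comes from the probe set without such a mark. The 3 log2 ratios had an SD of 0.22, equal to the median SD of 0.22 over 4002 genes read by 2 or more such probe sets.

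The sequences before the starts of these genes are shown because the 3 GRO-type genes were higher together and share letters there. RefSeq promoter entries (mouse assembly GRCm38.p6, plus strand of the chromosome and of each gene) were matched for 6 of the 7 members, all but Cxcl5. The last 120 bases before the annotated start are printed for the 5 ligand genes with an entry, and the entry of Cxcr2, which held none of the motifs searched, is not shown. Capitals mark GGGAATTTCCC, the longest run of bases that the 250 bases before Cxcl1, Cxcl2 and Cxcl3 have in common, and ATAAAA (an element like the TATA box), each on either strand. The stretches are chr5:90891125-90891244 (Cxcl1), chr5:90903779-90903898 (Cxcl2), chr5:90785981-90786100 (Cxcl3), chr5:90768398-90768517 (Ppbp) and chr5:90772315-90772434 (Pf4).
Cxcl1: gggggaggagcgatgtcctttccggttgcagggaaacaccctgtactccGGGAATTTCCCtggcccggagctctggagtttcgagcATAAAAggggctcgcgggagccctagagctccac
Cxcl2: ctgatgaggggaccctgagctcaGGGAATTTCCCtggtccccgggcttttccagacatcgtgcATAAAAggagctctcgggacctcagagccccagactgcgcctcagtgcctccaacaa
Cxcl3: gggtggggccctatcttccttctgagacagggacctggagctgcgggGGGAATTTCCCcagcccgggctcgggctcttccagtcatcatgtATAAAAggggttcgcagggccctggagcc
Ppbp: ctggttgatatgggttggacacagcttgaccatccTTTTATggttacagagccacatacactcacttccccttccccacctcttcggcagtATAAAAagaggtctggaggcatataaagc
Pf4: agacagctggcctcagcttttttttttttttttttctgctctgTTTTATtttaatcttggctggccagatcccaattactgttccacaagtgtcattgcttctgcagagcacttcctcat

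The shared run of 11 bases began 71 bases before the start of Cxcl1, 97 before that of Cxcl2 and 73 before that of Cxcl3. It contains a match to the consensus of the κB site, which the transcription factor NF-κB binds, on each strand, the matches overlapping by all but their outermost base. An ATAAAA element followed it on the same strand after 37 bases in Cxcl1, 40 in Cxcl2 and 44 in Cxcl3, counted from first base to first base. Outside these elements the stretches were less alike. Over 60 bases set side by side from 5 bases before the shared run, 29 were identical between Cxcl1 and Cxcl3, 26 between Cxcl2 and Cxcl3 and 25 between Cxcl1 and Cxcl2.

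In the 250 bases before the start, searched on both strands, neither the shared run nor the NF-κB consensus was found for Ppbp, Pf4 or Cxcr2. Of all 32851 promoter entries, 14 held the shared run and 3.90% a match to the consensus. ATAAAA was found in 17.0% of all entries, and TATAAA in 12.4%, among them those of Cxcl3 and Ppbp. TTGCNNAA, the core of a C/EBP site, was found in 9.56% of all entries and before Pf4 alone among the members. Among the genes higher by 2-fold or more in the MSU pool, 323 had a promoter entry. Of these 4 held the shared run, the 3 from which it was read and Il16, a chemoattractant of CD4+ cells. Over all 8997 genes with a fold or a bound and a promoter entry, 5 held it. The NF-κB consensus was found in 5.61% of these 8997 genes. It was found in 12.7% of the 323 higher genes, the 3 members among them, and in 4.96% of 383 genes lower by 2-fold or more. These matches describe letters and not binding, and a motif missing from the window says nothing of the factor.

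Cxcl5, known in the mouse from fibroblasts and epithelia, had a signal of 5585 in the MSU pool and 774 in the control pool. It was 7.21-fold higher (log2 ratio 2.85), at rank 17 of the genes with a fold. In order of log2 ratio the members with a fold ran from Cxcl3 through Cxcl2, Cxcl1 and Cxcl5 to Pf4. The steps between neighbours were 0.39 for Cxcl3 to Cxcl2, 0.78 for Cxcl2 to Cxcl1, 0.31 for Cxcl1 to Cxcl5 and 1.78 for Cxcl5 to Pf4. As a yardstick, log2 ratios from probe sets of the same gene differed by up to 0.75 at the 90th percentile of 9833 pairs, and by up to 1.07 in genes with a probe set at least 2-fold higher. By the wider of these limits, each step from Cxcl3 through Cxcl2 and Cxcl1 to Cxcl5 was no larger than the disagreement between probe sets. Only the step to Pf4 was larger. The ends of that series, Cxcl3 (4.32) and Cxcl5 (2.85), nevertheless lay further apart than the wider limit. By the narrower limit the step from Cxcl2 to Cxcl1 was larger too. With its lowest probe set (log2 ratio 2.72) Cxcl1 would come after Cxcl5. This spread holds no variation between mice, pools or arrays.

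**Figure D2:**
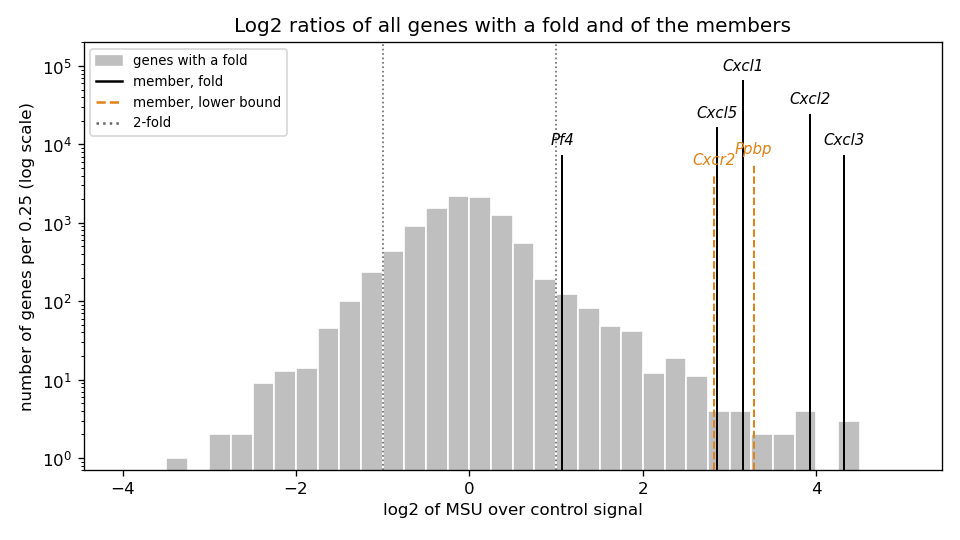
Number of genes (y axis, log scale) by log2 ratio, MSU over control (x axis), for the 10045 genes with a fold, in steps of 0.25. Solid lines are the members with a fold, dashed orange lines the lower bounds of Cxcr2 and Ppbp, and dotted lines 2-fold. Pf4, at 1.07, lies beside the 2-fold line and the other members lie far to the right.

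Both remaining ligands are best known from platelet granules. Ppbp encodes the precursor that neutrophil proteases trim to an active CXCR2 ligand. Its signal was 627 in the MSU pool and 43.8 in the control pool, where it lay below the floor, so it was at least 9.71-fold higher (plain ratio of the signals 14.3). Pf4, which binds heparin and does not act through CXCR2, had signals of 4565 in the MSU pool and 2179 in the control pool and was 2.10-fold higher (log2 ratio 1.07), at rank 324. Its control signal was 33.7 times the floor, so Pf4 mRNA was readily measured in membranes that had received PBS alone. The 2-fold call of Pf4 did not hold when the arrays were scaled by their medians (log2 ratio 1.00, just under 1), by quantile normalization (0.99) or on the spike-in controls (0.61).

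Markers of platelets were set beside these values. Of 12 platelet and megakaryocyte markers with a named probe set, 9 had a fold or a bound, 2 were higher by 2-fold or more and 0 lower by as much, with a median log2 ratio of 0.02 over 6 folds. P-selectin (Selp), also made by endothelium, was 2.88-fold higher, with 563 in the MSU pool and 195 in the control pool. Its other probe sets were below the control floor, with bounds of at least 2.35-fold (152 in the MSU pool and 23.9 in the control pool) and at least 1.74-fold (113 in the MSU pool and 5.64 in the control pool). The transcription factor Nfe2 was at least 2.98-fold higher, with 192 in the MSU pool and 52.1 in the control pool. The log2 ratio of the integrin Itga2b was 0.28, that of Gp1bb 0.11 and that of Gp5 -0.07. Gp9, Clec1b and Mmrn1 lay below the floor in both pools. The summed signal of the 12 markers was 1574 in the MSU pool and 966 in the control pool, and the part of platelets in the values of Ppbp and Pf4 was not tested.

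Macrophages also transcribe Pf4 in the mouse, and most markers of resident macrophages were measured in both pools. Of 17 such markers, 16 had a fold, 0 were higher by 2-fold or more and 2 lower by as much (Trem2 and Folr2), with a median log2 ratio of -0.32. Under scaling on the spike-in controls 5 of the 16 were lower by 2-fold or more, as were 1787 of all 11282 genes. The mannose receptor Mrc1 had 6420 in the MSU pool and 3609 in the control pool, and the haemoglobin scavenger receptor Cd163 had 2467 in the MSU pool and 1270 in the control pool, log2 ratios of 0.83 and 0.96. In contrast, the complement component C1qa had 4725 in the MSU pool and 6685 in the control pool (log2 ratio -0.50). Timd4 was below the floor in both pools. The summed signal was 31934 in the MSU pool and 33949 in the control pool. Fewer cells of a type and less RNA per cell cannot be told apart in RNA from whole membranes.

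The receptor Cxcr2 was represented by a single probe set, with a signal of 457 in the MSU pool and 63.0 in the control pool. The control value fell just short of the floor of 64.6, so Cxcr2 was at least 7.07-fold higher, close to its plain ratio of 7.25. Cxcr2 is a marker of mature neutrophils, and other markers of these cells were higher too. Of 16 with a named probe set, 13 had a fold or a bound, 10 were higher by 2-fold or more and 0 lower by as much, with a median log2 ratio of 1.96 over 12 folds. The calgranulin S100a9 had 8737 in the MSU pool and 724 in the control pool, and S100a8 had 8677 in the MSU pool and 817 in the control pool. The surface glycoprotein Cd177 resembled Cxcr2, with 470 in the MSU pool and 62.3 in the control pool, at least 7.27-fold higher.

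The neutrophil list was not uniform. Mpo, an enzyme of primary granules made mainly in the marrow, had signals of 75.4 in the MSU pool and 74.2 in the control pool, and Elane, Camp and Padi4 were below the floor in both pools. Lactoferrin (Ltf) was lower, with 161 in the MSU pool and 234 in the control pool (log2 ratio -0.54). The summed signal of the 16 markers was 27554 in the MSU pool and 4726 in the control pool (ratio 5.83). Without S100a8 and S100a9 it was 10140 in the MSU pool and 3184 in the control pool (ratio 3.18). The share of infiltrating neutrophils in the values of Cxcr2 and of the ligands was not tested.

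The other receptors of these ligands showed no such difference. Ackr1, the atypical receptor on venular endothelium and red cells that binds CXC and CC chemokines without signalling, had 608 in the MSU pool and 528 in the control pool (log2 ratio 0.20, below 0 under scaling on the spike-in controls). Cxcr1 had no named probe set here. Cxcr3, the receptor of the interferon-induced chemokines, had 100 in the MSU pool and 108 in the control pool. Components through which CXCR2 acts inside the cell were mostly between the 2-fold limits. Of 15 named genes, 14 had a fold and 1 was at least 2-fold higher, the Src family kinase Fgr, with 448 in the MSU pool and 188 in the control pool. The G protein subunit Gnai2 had a log2 ratio of 0.21, β-arrestin 2 (Arrb2) 0.25 and the exchange factor Prex1 -0.35. Under scaling on the spike-in controls none of the 14 was at least 2-fold higher.

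Other CXC chemokines were measured for 9 genes, of which 2 were higher by 2-fold or more and 1 lower by as much, with a median log2 ratio of 0.26. Scaling on the spike-in controls left 1 higher and 2 lower by 2-fold or more. Of the chemokines induced by interferon, Cxcl10 was lower, with 154 in the MSU pool and 398 in the control pool (2.59-fold). Cxcl11 had 106 in the MSU pool and 127 in the control pool. Cxcl9 was at least 2.85-fold higher, with 184 in the MSU pool and 56.6 in the control pool. The other probe sets of Cxcl9 and Cxcl11 lay below the floor in both pools. Cxcl13, which attracts B cells, was 2.59-fold higher on the probe set with the higher mean signal, which represents it here, and 1.19-fold higher on the other. Cxcl12, the chemokine that holds neutrophils in the marrow through CXCR4, was 1.77-fold higher on the probe set that stands for it and 3.06-fold higher on another. Cxcl14 and Cxcl16 had log2 ratios of 0.20 and 0.33, which scaling on the spike-in controls turned below 0. No other fold or bound among these genes exceeded 3.06.

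The ligand genes lie next to each other on chromosome 5, and the genes around them served as a comparison by position. Between Cxcl5 and Cxcl2 the RefSeq order was Cxcl5, Ppbp, Pf4, Cxcl3, Cxcl15, Cxcl1 and Cxcl2. Cxcl15 (lungkine), a chemokine of lung epithelium inside the cluster, was the only one of these not higher. It had 21.1 in the MSU pool and 103 in the control pool, at least 1.40-fold lower, and its other probe set was below the floor in both pools. The 5 protein coding genes before the cluster, Alb, Afp, Afm, Albfm1 and Rassf6, were all below the floor in both pools. After it, Mthfd2l, a mitochondrial folate enzyme, had 216 in the MSU pool and 117 in the control pool (log2 ratio 0.89). Epiregulin (Ereg), a growth factor of the EGF family, had 343 in the MSU pool and 67.5 in the control pool and was 5.08-fold higher, whereas betacellulin (Btc) had 88.4 in the MSU pool and 87.8 in the control pool. Epgn was below the floor in both pools, and Areg had no named probe set here. Of the 10 other genes with a named probe set in this stretch, 4 had a fold or a bound, and 1 of these 4 was higher by 2-fold or more.

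**Figure D3:**
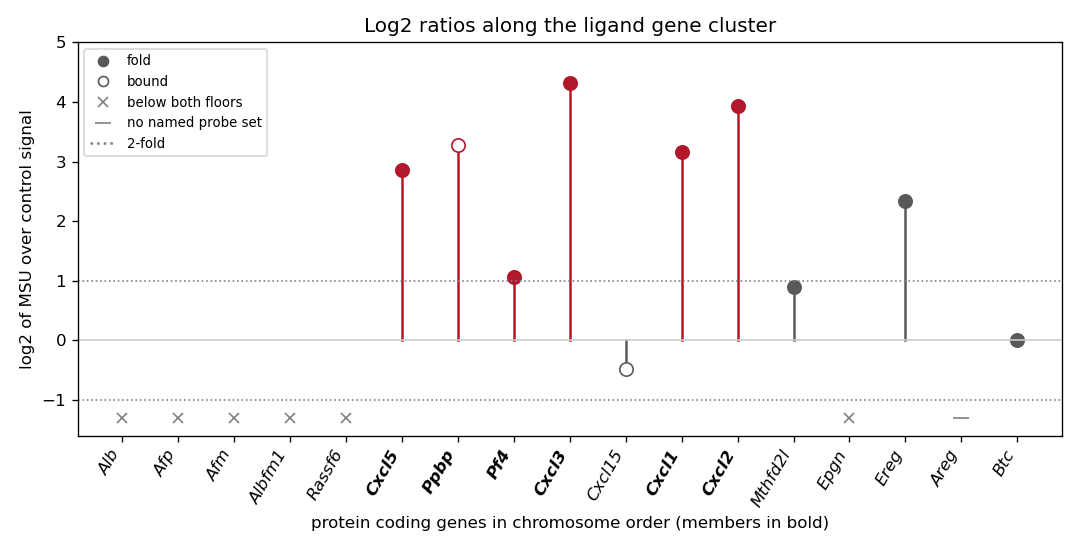
Log2 of MSU over control signal (y axis) for 17 protein coding genes in their order on chromosome 5 (x axis, order only, not to scale), with the ligand genes in bold and red. Filled points are folds, open points bounds, crosses genes below both floors and the bar a gene with no named probe set. The 6 ligand genes lie between 1.07 and 4.32, with Cxcl15 among them at -0.48.

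Some of the genes listed here with the induction of the ligands were also higher. The list holds cytokines, receptors and adaptors of the interleukin-1, tumour necrosis factor and interleukin-17 routes, and Il6, which is outside these routes. Of 16 with a fold or a bound, 8 were at least 2-fold higher, Il6 among them, with a median log2 ratio of 0.95 over 13 folds. The receptor chain Il17rc was at least 2-fold lower (25.4 in the MSU pool and 165 in the control pool), the only 1 to be so. Under scaling on the spike-in controls 6 of the 16 were higher by 2-fold or more. Interleukin-1β (Il1b) had 3594 in the MSU pool and 328 in the control pool and was 10.9-fold higher. Tumour necrosis factor (Tnf) had 291 in the MSU pool and 37.4 in the control pool and was at least 4.51-fold higher. Interleukin-1α (Il1a) had 285 in the MSU pool and 36.6 in the control pool and was at least 4.41-fold higher. Il1f9, which encodes IL-36γ, was 7.10-fold higher, close to Cxcl5. Il6 was 22.5-fold higher. By contrast Il17a, which acts with tumour necrosis factor to raise Cxcl1, had 77.3 in the MSU pool and 92.2 in the control pool, near the floor in both.

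Of 11 transcription factors and regulators with a known part in ligand transcription, 5 were higher by 2-fold or more and 0 lower by as much, with a median log2 ratio of 1.03 over 10 folds. The atypical inhibitor Nfkbiz (IκBζ), needed for a subset of NF-κB targets, was 3.57-fold higher, with 2272 in the MSU pool and 637 in the control pool. Bcl3 was 2.51-fold, Nfkbia 2.49-fold and C/EBPβ (Cebpb) 2.32-fold higher, whereas the NF-κB subunit Rela had a log2 ratio of 0.35 and Jun one of 0.18, which scaling on the spike-in controls turned below 0. Under that scaling, Nfkbiz alone of 10 with a fold or a bound was at least 2-fold higher.

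The mRNAs of Cxcl1, Cxcl2 and Cxcl3 are short-lived, and 2 of 8 genes of mRNA decay were at least 2-fold higher. These were the endonuclease regnase-1 (Zc3h12a), with 388 in the MSU pool and 53.6 in the control pool and at least 6.01-fold higher, and tristetraprolin (Zfp36), 2.37-fold higher with 2185 in the MSU pool and 924 in the control pool. The stabilizing protein HuR (Elavl1) had a log2 ratio of 0.22. Under scaling on the spike-in controls Zc3h12a alone remained at least 2-fold higher, and the log2 ratio of Elavl1 was below 0.

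Proteases that trim the ligands and proteoglycans that display them were measured as well. Of 12 proteases, 8 had a fold and 3 were at least 2-fold higher, the neutrophil collagenase Mmp8 (7.91-fold), gelatinase B (Mmp9, 3.07-fold) and macrophage elastase (Mmp12, 2.41-fold), of which Mmp8 and Mmp9 are also on the neutrophil list. The serine proteases of neutrophil granules, Elane, Ctsg and Prtn3, were below the floor in both pools. Dpp4, which clips chemokines at the amino end, had a log2 ratio of -0.47. Of 12 proteoglycan and heparan sulphate genes, 2 were at least 2-fold higher, syndecan-4 (Sdc4, 4.29-fold, 2497 in the MSU pool and 582 in the control pool) and serglycin (Srgn, 3.21-fold, 7343 in the MSU pool and 2285 in the control pool), the granule proteoglycan of blood cells. Under scaling on the spike-in controls 2 proteoglycan genes were higher and 2 lower by 2-fold or more, and of the proteases 2 were higher and 1 lower. Of all 11282 genes 200 were higher and 1787 lower by as much under it. Syndecan-1 (Sdc1) had a log2 ratio of 0.83 and the heparan sulphate polymerase Ext1 one of 0.05.

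**Figure D4:**
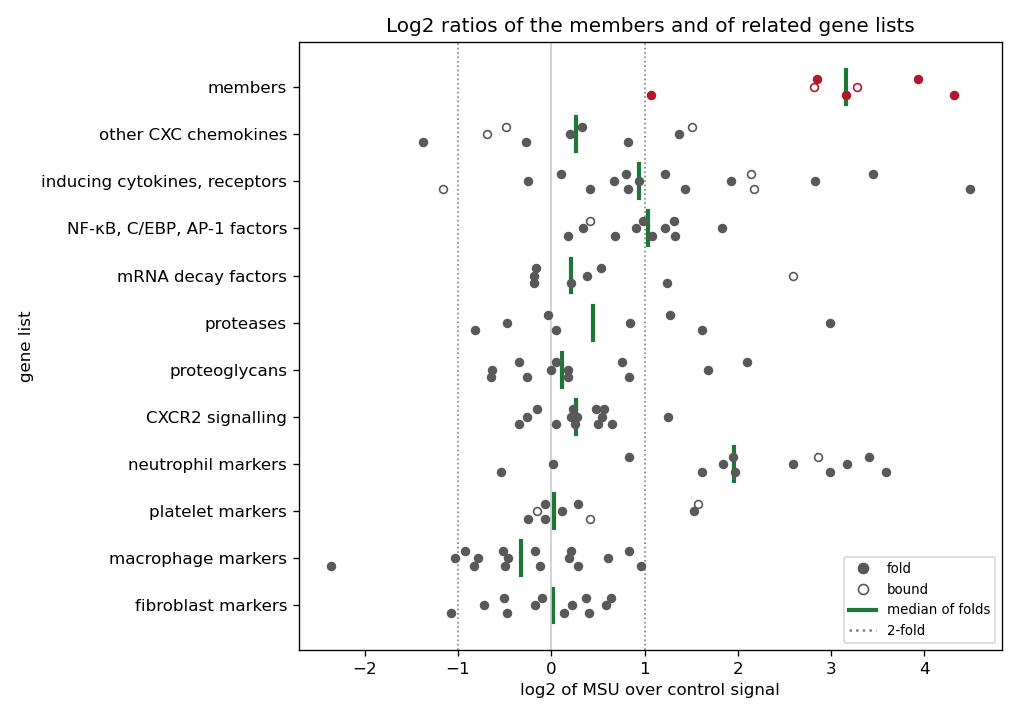
Log2 ratio, MSU over control (x axis), of the genes with a fold (filled) or a bound (open) in 12 gene lists (y axis), with the median of the folds as a green bar and 2-fold as dotted lines, 1 array per pool. The members have a median of 3.16, the neutrophil markers of 1.96 and the macrophage markers of -0.32.

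No listed marker of fibroblasts, endothelium, epithelium, mast cells, adipocytes or skeletal muscle was higher by 2-fold or more. Fibroblast markers, measured for 12 of 12 genes, passed 2-fold upwards in 0 and downwards in 1 (Mfap5), with a median log2 ratio of 0.02 and a summed signal of 69526 in the MSU pool and 63861 in the control pool. Of 10 endothelial markers with a fold or a bound, none was at least 2-fold higher or lower. Epithelial markers were lower, at least 2-fold in 5 of 8, with a summed signal of 640.0 in the MSU pool and 2140 in the control pool. Adipocyte markers were at least 2-fold lower in 7 of 8 and skeletal muscle markers in 4 of 10. Mast cell markers were past 2-fold in 0 of 6, and in 2 of 6, both lower, under scaling on the spike-in controls. Under that scaling 2 fibroblast, 1 endothelial, 7 epithelial, 7 adipocyte and 6 muscle markers were lower by 2-fold or more. The same scaling put 1787 of all 11282 genes lower by as much, so the fibroblast and endothelial counts do not set those lists apart. Recruited monocyte markers were at least 2-fold higher in 3 of 6. Whether the makeup of the tissue differed between the pools, and how far this moved the ratios of the chemokine genes, was not tested.

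Genes with the ratio nearest to each member were sought among those with an MSU signal of at least 4 times the floor. Over the 2 arrays, likeness means a small difference in log2 ratio and nothing more. Nearest to Cxcl3 were Acod1 (19.8-fold higher, a difference of 0.01) and Il6 (0.17). Cxcl2 was followed by the lectin receptor Clec4e (0.13) and the stefin Stfa2l1 (0.16). For Cxcl1 they were the granule protein Ngp (0.01) and the syntaxin Stx11 (0.13), and for Cxcl5 Il1f9 (0.02) and the receptor Trem1 (0.03). Trem1 was 7.04-fold higher on the probe set that stands for it here, and the study lists it with a larger ratio. Pf4 had many genes near it, the closest being the aryl hydrocarbon receptor Ahr and the adaptor Sla, both 2.10-fold higher.

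**Figure D5:**
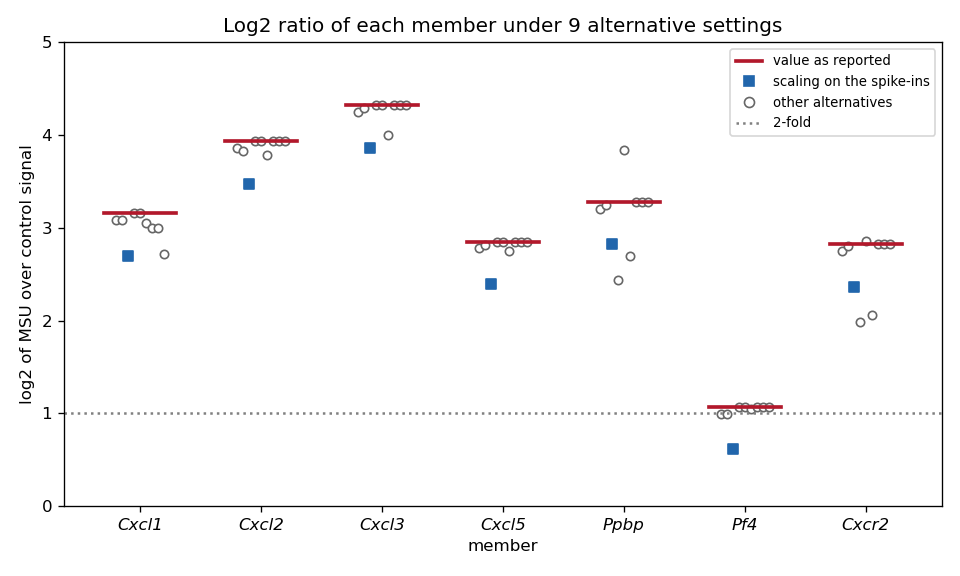
Log2 of MSU over control signal (y axis) of the 7 members (x axis), as reported (red lines), under scaling on the spike-in controls (blue squares) and under 8 other settings (open circles). Every value lies above 0, and Pf4 crosses the dotted 2-fold line under 3 settings, with 0.61 as its lowest value.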

How the data were processed

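Pooled membrane RNA of 3 mice per group was measured on 1 Affymetrix Mo430_2 array per group. The authors deposited 1 linear intensity per probe set, made with Affymetrix software (MAS5 is named among the submitters' tools, its version not given in the sources used here) and scaled to a common trimmed mean. The trimmed mean without the highest and lowest 2% was 150.0 on both arrays, and the median signal 59.2 on the MSU array and 56.4 on the control array. Values were used as deposited.

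The table holds 45101 probe sets, 64 of them controls, and the platform annotation names 1 gene for 34945, several for 932 and does not list 9211. Probe sets of several genes were left out. For each gene the probe set of highest mean log2 signal stood for it. Summed signals of a list add the probe sets of different genes, those below the floor included, so the brightest weigh most in them. Each array's floor was set so that the number of probe sets over it equalled the number that the study counted as detected. Ratios are MSU over control, and no p-value was computed. Each value rests on 1 array, which limits its precision, and probe sets are not replicates. Names follow the platform annotation and RefSeq (GRCm38.p6), through which 2 list symbols were updated. Promoter matches used the 250 bases before the start, without the transcribed part, and the shared run was chosen on the members themselves.

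The members and the gene lists were chosen with earlier results of these data known. Named genes are the members, list genes with the largest ratios or highest signals, the 2 genes nearest in ratio to each member, and the chromosome neighbours. Some further list genes were named after their values were seen. Alternatives were 3 other scalings, another floor, no floor, the floor as a pseudocount, other choices of probe set and a 3-fold size, and the median without Pf4 was added after seeing the data. The computation was tested on simulated data. Python 3.11.15, numpy 2.4.6, pandas 2.3.3 and matplotlib 3.10.9 were used.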

Additional observations from a re-analysis of the deposited data

How the results depend on the processing

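All 63 log2 ratios of the 7 members under 9 alternatives were above 0, the lowest being 0.61 for Pf4. Of these, 50 lay within 0.33 of the value given, the pooled SD between probe sets of a gene. Many of the 50 could not differ by construction. Another floor or no floor leaves genes far above the floor unchanged, and another choice of probe set leaves genes with 1 such probe set unchanged. All 7 members were at least 2-fold higher under 6 of the alternatives. Under the scalings by medians, by quantiles and on the spike-in controls 6 members were, as at a size of 3-fold, with Pf4 the exception each time. Among the 6 alternatives that kept all members, only the floor as a pseudocount could move Pf4 (log2 ratio 1.05), so this tally adds little to its 2-fold call. The 18 spike-in probe sets were all brighter on the MSU array, and scaling on them set the members' median at 2.70 in place of 3.16, the median of all genes at -0.51 in place of -0.05, and the share of genes at least 2-fold higher at 1.77%. It left 200 genes higher and 1787 lower, so that 10.1% of the genes past 2-fold were higher, against 46.4% as reported and 60.3% with the floor as a pseudocount. That pseudocount gave a median of 2.75 and a share of 1.81%, the share was 8.92% with no floor and 1.47% at 3-fold (67.2% of those past 3-fold were higher), and the median without Pf4 was 3.54 (chosen after seeing the data, like the neutrophil sum without S100a8 and S100a9). The bounds of Ppbp and Cxcr2 depend on the floor by construction, with log2 values of 2.44 and 1.98 at the floor of the 15000th highest signal. No paired analysis was possible because each group has 1 array. With 1 array per pool, no variation between mice or hybridizations can be read from these values.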

Other observations

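Genes that govern the release of neutrophils from marrow were measured in the same membranes. Csf3, the growth factor of granulocytes, had 1483 in the MSU pool and 50.9 in the control pool and was at least 22.9-fold higher, a bound above the folds of all 5 members that have one. Its receptor Csf3r, which neutrophils carry, was 3.85-fold higher, with 989 in the MSU pool and 257 in the control pool. Cxcr4, the receptor that keeps neutrophils in marrow, had 338 in the MSU pool and 395 in the control pool (log2 ratio -0.23). Csf2 and Il23a were below the floor in both pools. Among genes with a fold or a bound, the run GGGAATTTCCC also stood, outside the members and Il16, before the zinc finger gene Zfp84. It had 127 in the MSU pool and 160.0 in the control pool (log2 ratio -0.33).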
